A study of Homo sapiens with 8 samples.

Results

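LINC02732 is a long intergenic non-coding RNA gene on chromosome 11, and 3 of the 24199 smORFs counted by Ribo-Seq in Caco-2 cells lie in its transcripts. They are IEC_08658, IEC_08659 and IEC_08660, and they were taken as every counted smORF whose annotated host gene is LINC02732. In all 3, footprint levels rose with differentiation, and their means were higher still in both groups that received micelles, with or without lipid, although edgeR called no smORF between micelles and control. The gene was chosen by its values under lipid micelles, so the lipid micelle values of the 3 smORFs are descriptions, with no p-value.

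Small open reading frames (smORFs) are short stretches of codons that end at a stop codon, and the peptides they encode are called microproteins. An RNA is annotated as long non-coding when no protein is known from it, yet ribosomes often bind short reading frames in such RNAs, most often near the 5′ end. Ribo-Seq sequences the pieces of RNA that ribosomes protect from nuclease, so a footprint count follows both the amount of the RNA and how densely ribosomes sit on it, and these cannot be told apart without matched RNA levels. Nor can more cells that use the RNA be told apart from more of it in each cell. No function of LINC02732 is stated in the annotation used here.

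Caco-2 is a cell line from a human colon adenocarcinoma that takes on features of small-intestinal enterocytes, the absorptive cells of the gut lining, when left to differentiate after confluence. The 8 libraries fall in 4 groups of 2 replicates, all from this line: undifferentiated cells, differentiated control cells with no further treatment, cells that had differentiated and then received micelles without lipid, made of the bile salt taurocholate, and a matching group that received lipid micelles holding BSA, oleic acid and cholesterol. Albumin, fatty acid and sterol were thus given together, and the labels do not say whether the lipid micelles also held taurocholate. Doses, times and the origin of the replicates as separate cultures are not given in the labels, so p-values measure the spread between these libraries, which may be technical. Libraries held 506382 to 884711 smORF counts.

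In hg38 the gene spans chr11:110355130-110407613 on the + strand (ENSG00000254416.6, type lncRNA), and no protein-coding gene of GENCODE 44 overlaps it. Overlap with other non-coding genes is not given here. The 3 smORFs are classed as non-coding in the deposited annotation, and each matched the spliced transcript ENST00000526605.6, which has 3 exons and 1933 nt. The sequences are shown because 2 of the 3 smORFs share bases and because they begin differently. Capitals mark the first codon of IEC_08658 and IEC_08660, and in IEC_08659 the bases it shares with IEC_08660. The stop codon that follows each is not part of the run.
IEC_08658: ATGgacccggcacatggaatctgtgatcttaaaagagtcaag
IEC_08659: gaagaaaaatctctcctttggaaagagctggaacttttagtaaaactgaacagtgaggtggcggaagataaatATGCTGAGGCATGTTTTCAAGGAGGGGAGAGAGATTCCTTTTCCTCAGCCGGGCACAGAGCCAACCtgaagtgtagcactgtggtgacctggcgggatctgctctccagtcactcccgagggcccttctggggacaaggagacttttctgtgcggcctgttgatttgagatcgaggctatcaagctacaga
IEC_08660: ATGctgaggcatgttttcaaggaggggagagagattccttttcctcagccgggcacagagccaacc

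IEC_08658 is the shortest and most 5′ of them. It covers chr11:110355327-110355368, 42 nt in exon 1 that encode 14 amino acids. It begins with ATG, has A at the base 3 before the ATG and G directly after it, as in the favoured context for initiation, and is followed by TGA. IEC_08660 covers chr11:110366367-110366432, 66 nt in exon 2 that encode 22 amino acids. It too begins with ATG, with A at the same upstream base and C directly after the ATG, and is followed by TGA.

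IEC_08659 joins all 3 exons, from chr11:110355452 to chr11:110406266, and its 264 nt encode 88 amino acids. Its first codon is GAA, directly after an in-frame TAG stop, so the smORF as deposited runs from stop to stop. It holds no in-frame ATG. The first in-frame codon that differs from ATG at a single base is the CTG at codon 10, and there are 11 such codons in all. IEC_08660 lies wholly inside it, in another frame, and its 66 nt make up 25% of IEC_08659. Footprints on those bases can count towards both smORFs, and in every library IEC_08659 had more counts than IEC_08660, so these are not independent measurements. IEC_08658 ends 83 nt before IEC_08659 begins and shares no base with either.

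**Figure D1:**
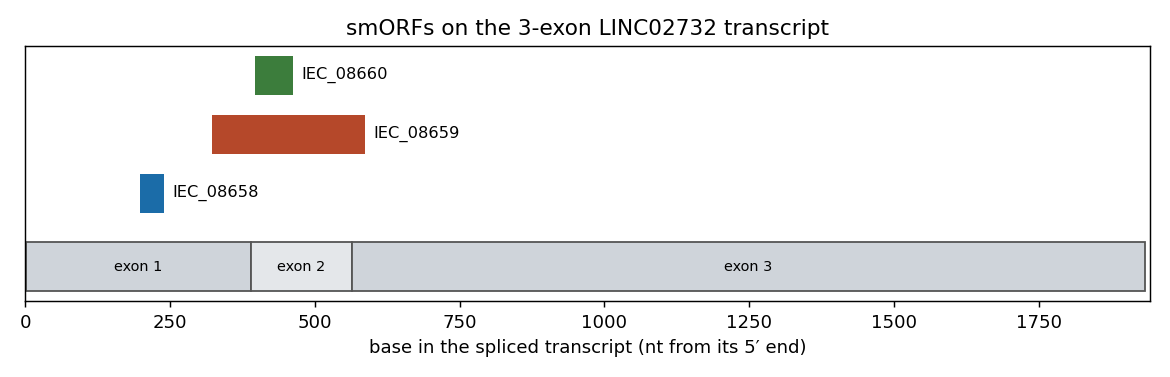
The 3 smORFs (coloured bars) on the spliced 3-exon LINC02732 transcript (grey), with the position in nt from the transcript's 5′ end on the x axis. IEC_08658 lies in exon 1, and IEC_08660 lies inside IEC_08659, which crosses both splice junctions and ends at base 586 of 1933.

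Translation calls rested on RibORF, which scores how far footprints follow the frame of a reading frame. IEC_08658 had the highest maximum score, 1.04, with a lowest score of 0.74. IEC_08659 had a single score of 0.949, and IEC_08660 had scores from 0.782 to 0.927. IEC_08658 and IEC_08660 were scored on 5 transcripts each, and IEC_08659 on 1. The scores belong to the smORF and to no sample, and the study also profiled other cell types. They therefore do not tell whether a smORF was called in Caco-2 cells. The median over all 24199 smORFs was 0.876, but every smORF in the table had to pass the authors' score minimum. PhyloCSF asks whether substitutions across species look like those of a conserved coding sequence, and is positive when they do. The mean PhyloCSF score was -8.60 for IEC_08658, -8.34 for IEC_08659 and -9.44 for IEC_08660, below the median of -6.76 over all smORFs and of -6.99 over the 773 smORFs in LINC genes. Their maximum scores were below 0, from -6.13 to -3.38, which is usual here. A maximum above 0 was found for 12.9% of all smORFs and 3.23% of those in LINC genes. The -3.38 of IEC_08659 was near the median maximum of -3.30 over all smORFs and above the -4.80 over LINC genes. IEC_08659 was listed with a repeat hit, as were 69.6% of the smORFs in LINC genes, and the other two were not. Of the 28-base words of the 3 sequences, 0 of 15, 0 of 237 and 0 of 39 occurred in GENCODE transcripts of other genes.

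IEC_08659 had the most counts, 851 over the 8 libraries. Undifferentiated cells gave 19 and 10 counts, with 52 and 78 in differentiated control cells, 139 and 148 in cells given micelles without lipid, and 175 and 230 in cells given lipid micelles. As relative levels (CPM, counts scaled to a common depth, by the TMM-adjusted total of the smORFs tested in a library) these were 29.9 and 17.8, 101.7 and 101.4, 252.0 and 204.6, and 260.0 and 267.8. The 4 groups did not overlap, and the undifferentiated libraries were the lowest and the lipid micelle libraries the highest. How many of all smORFs have 4 groups apart was not counted. At this depth a count of 3 was worth 3.49 to 5.86 CPM, depending on the library.

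IEC_08660, the smORF inside it, was counted 5 and 4 times in undifferentiated cells, 26 and 45 in the control, 72 and 80 in cells given micelles without lipid, and 84 and 147 in cells given lipid micelles. Its CPM were 7.86 and 7.11, 50.8 and 58.5, 130.5 and 110.6, and 124.8 and 171.2. Here the control libraries lay above the undifferentiated libraries and below every micelle library, while the 2 micelle groups overlapped.

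IEC_08658, which shares no reads' positions with them, had 8 counts and 1 count in undifferentiated cells, 26 and 37 in the control, 38 and 68 in cells given micelles without lipid, and 83 and 78 in cells given lipid micelles. Its CPM were 12.6 and 1.78, 50.8 and 48.1, 68.9 and 94.0, and 123.3 and 90.8. The groups ranked as for the other two, again with an overlap of the 2 micelle groups. With 1 count, the 95% Wilson interval of the undifferentiated replicate 2 library ran from 0.314 to 10.1 CPM. These intervals cover counting error only.

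**Figure D2:**
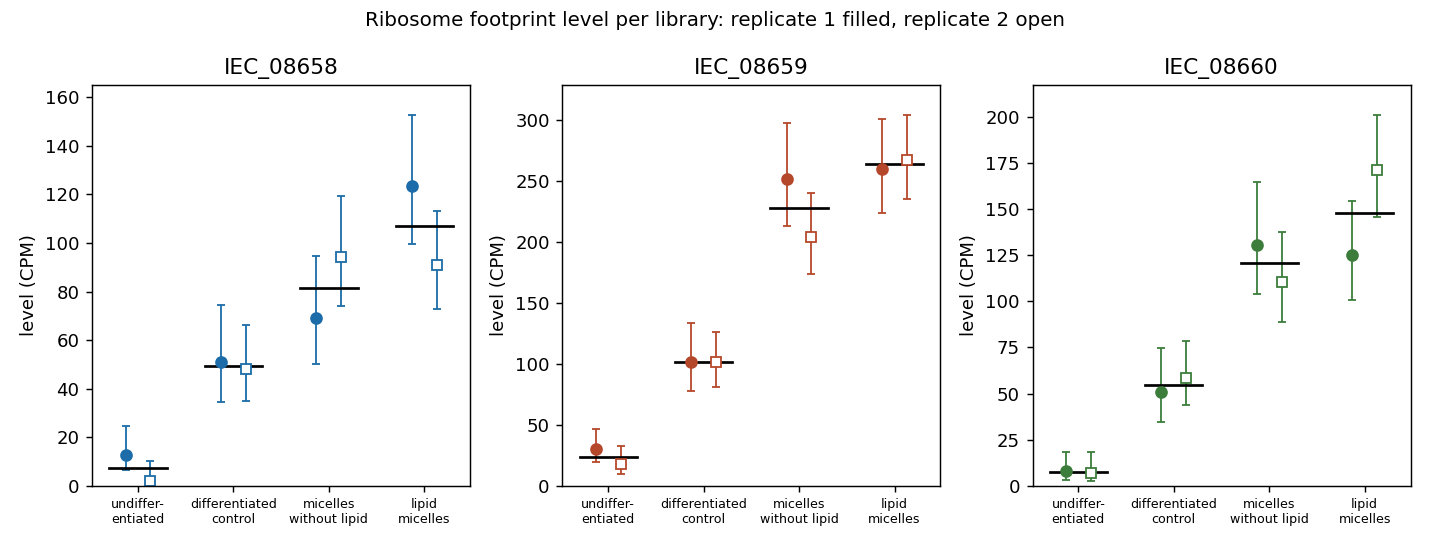
Level of each smORF in CPM (y axes, from 0) in the 8 libraries by group. Points are libraries (replicate 1 filled, replicate 2 open) with 95% Wilson counting intervals, and black lines are group means of 2. In all 3 panels the undifferentiated libraries are lowest, the control libraries intermediate and the libraries of both micelle groups highest.

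For a level of the gene as a whole, the counts of IEC_08659 and IEC_08658 were summed, since these share no base. The summed level was 31.0 ± 16.2 CPM (SD, n = 2) in undifferentiated cells, 151.0 ± 2.06 in the control, 309.8 ± 15.7 in cells given micelles without lipid and 371.0 ± 17.5 in cells given lipid micelles. The 4 groups stood apart, from 19.5 to 42.4 CPM in undifferentiated cells up to 358.6 to 383.3 with lipid micelles, the group by which the gene was chosen. IEC_08659 gave 851 of the 1190 summed counts, so the sum largely repeats it, and IEC_08658 alone overlapped between the 2 micelle groups. The share of all smORFs with 4 groups apart was not counted. From undifferentiated cells to lipid micelles the means differed 11.97-fold, of which 4.87-fold lay between undifferentiated and control cells and 2.46-fold between control cells and lipid micelles.

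The first comparison asked how the smORFs differ between undifferentiated and differentiated control cells. All 3 rose with differentiation. The log2 fold change was 2.07 ± 0.33 (SE) for IEC_08659 (adjusted p = 0.000134 by edgeR's quasi-likelihood test with Benjamini-Hochberg adjustment over 15182 smORFs). It was 2.84 ± 0.43 for IEC_08660 (edgeR adjusted p = 8.58e-05) and 2.70 ± 0.52 for IEC_08658 (edgeR adjusted p = 0.000764). On the linear scale these are folds of 4.20, 7.18 and 6.48. A smORF was called at an adjusted p under 0.05 and a log2 fold change of at least 1 in either direction, and by that rule 17.7% of all smORFs tested were called higher in differentiated cells. The median log2 fold change of the 3 smORFs was 2.70, and that of all smORFs tested was 0.01. Every control library lay above every undifferentiated library for all 3, as for 35.2% of the smORFs tested. The size of the IEC_08658 change rested on which undifferentiated library was used, with 8 counts or with 1: its log2 fold change was 1.97 without undifferentiated replicate 2 and 4.66 without undifferentiated replicate 1, and it was called in both. The control libraries here also entered the comparison on which the gene was chosen.

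The change with differentiation was set beside that of other LINC genes. Of 445 tested smORFs in LINC genes other than LINC02732, 171 were called higher in differentiated cells and 38 lower, 38.4% higher against 17.7% of all smORFs, with a median log2 fold change of 0.98. Taking in each of 96 LINC genes the tested smORF with the most counts, LINC02732 was number 20 by log2 fold change with differentiation and number 8 by mean CPM over the 8 libraries.

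Most tested smORFs of an enterocyte list and a cell cycle list changed in the direction of the label of the cells. Of 20 tested smORFs in genes of an enterocyte list, 14 (70.0%) were called higher in differentiated cells, against 17.7% of all smORFs tested, among them the uORF IEC_16317 of APOA4, an apolipoprotein of intestinal lipid transport (log2 fold change 7.49 ± 0.41, edgeR adjusted p = 3.61e-09). IEC_17174, a uORF of APOA1, was the one called lower (-1.43 ± 0.35, edgeR adjusted p = 0.00425). Of 24 tested smORFs in cell cycle genes, 23 were called lower, against 15.6% of all smORFs tested, and the exception was IEC_17341 of PCNA at -1.66 ± 0.74 (edgeR adjusted p = 0.0876). The 24 lie in 7 genes, and IEC_00141, IEC_04447 and IEC_06519 of MCM5 have identical values. Several of the 20 enterocyte smORFs likewise share a gene, such as CDX2. Of the 18 genes of that list 10 held a counted smORF, and VIL1, ALPI and SI held no tested one. smORFs that share a gene are not independent observations. Goblet and enteroendocrine marker genes held 0 counted smORFs. The fibroblast and leukocyte markers held 1 smORF each, at up to 1.13 CPM and at 0 in all libraries.

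The second comparison asked what the bile salt micelles without lipid did to differentiated cells. All 3 smORFs had higher means than in the control, 2.25-fold for IEC_08659, 2.21-fold for IEC_08660 and 1.65-fold for IEC_08658, and the groups did not overlap, as for 16.2% of the smORFs tested. None of the 3 passed the test. The log2 fold change was 1.16 ± 0.27 for IEC_08659, with an unadjusted p of 0.000394 and an adjusted p of 0.523 in edgeR. For IEC_08660 it was 1.12 ± 0.29 (edgeR unadjusted p = 0.00123, adjusted p = 0.858), and for IEC_08658 0.73 ± 0.36 (edgeR unadjusted p = 0.0598, adjusted p = 1). In this comparison 0 of 15182 smORFs were called by edgeR (0.0% called higher), 2 were called by DESeq2, and 2.44% were higher at an unadjusted p under 0.05. With the replicate number as a block, edgeR called 15 smORFs, none of them in LINC02732, whose adjusted p were 0.0981 for IEC_08659, 0.271 for IEC_08660 and 0.835 for IEC_08658. The median log2 fold change was 1.12 over the 3 smORFs and 0.01 over all. Without micelles without lipid replicate 2 the log2 fold change of IEC_08658 was 0.48. The control libraries are those of the lipid micelle comparison, so these values are not independent of how the gene was chosen.

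The third comparison set lipid micelles against the control, and its values chose the gene. The means were 2.60-fold higher for IEC_08659, 2.71-fold for IEC_08660 and 2.16-fold for IEC_08658, and every lipid micelle library lay above both control libraries. The log2 fold changes were 1.38 ± 0.27, 1.43 ± 0.29 and 1.11 ± 0.35 in that order, around a median of 0 over all smORFs tested. edgeR called 0 of 15182 smORFs in this comparison (0.0% called higher), LINC02732 included, with 2.45% higher at an unadjusted p under 0.05 and 0 called by DESeq2. With the replicate number as a block, 1 smORF was called, outside LINC02732. Groups that did not overlap in this direction were found for 18.3% of smORFs.

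The fourth comparison set lipid micelles against micelles without lipid, in which the differences were the smallest of the 4 for all 3 smORFs. The ratio of means was 1.16 for IEC_08659, 1.23 for IEC_08660 and 1.31 for IEC_08658. The log2 fold changes were 0.21 ± 0.25, 0.30 ± 0.27 and 0.38 ± 0.33, each close to its own SE. For IEC_08659 both lipid micelle libraries lay above both libraries without lipid, as for 15.8% of the smORFs tested, and for the other two the groups overlapped. edgeR called 0 smORFs in this comparison (0.0% called higher), 624 had an unadjusted p under 0.05, and DESeq2 called 0. With the replicate number as a block, 14 smORFs were called, none of them in LINC02732. Side by side, the log2 fold changes from the control were 1.16 without lipid and 1.38 with lipid for IEC_08659, 1.12 and 1.43 for IEC_08660, and 0.73 and 1.11 for IEC_08658, from the same control libraries.

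**Figure D3:**
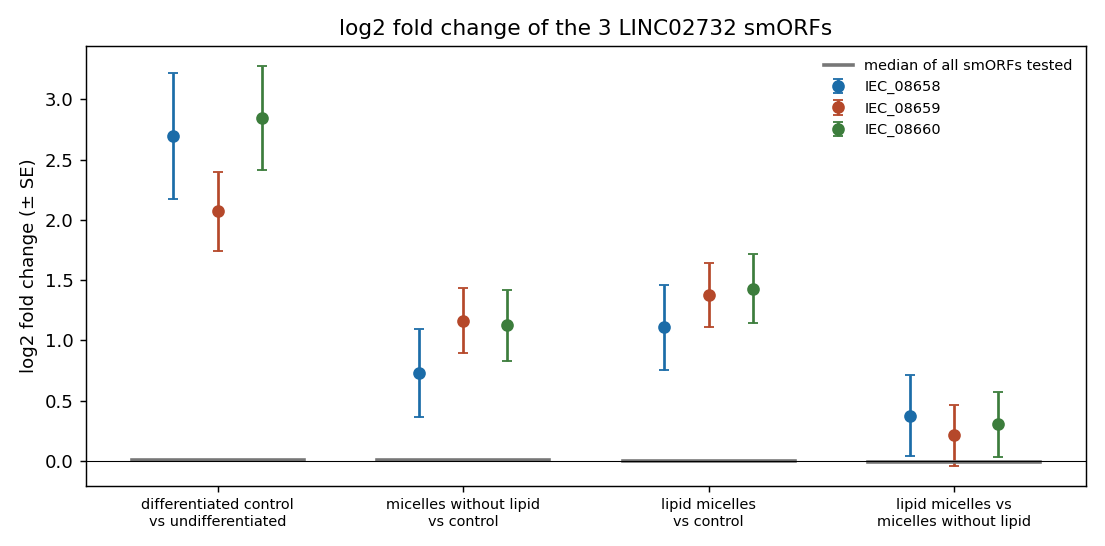
log2 fold change ± SE (y axis) of the 3 smORFs in the 4 comparisons, from the edgeR fit to all 8 libraries, with the median of all 15182 smORFs tested as a grey line. The values are largest with differentiation, similar in the 2 comparisons of micelles with the control, and 0.21 to 0.38 between the 2 kinds of micelles.

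The lists for lipid handling gave the setting for these values. Among 34 tested smORFs in genes of the fatty acid response, 0 were called in either direction in each of the 3 micelle comparisons. There edgeR called 0 of all 15182 smORFs tested, so a 0 is not particular to this list or the next. The median log2 fold change of the 34 was 0.20 for lipid micelles against the control. With differentiation 2 of the 34 rose (5.88%, against 17.7% of all smORFs tested called higher), IEC_14386 of FABP1, an intracellular fatty acid carrier (1.88 ± 0.44, edgeR adjusted p = 0.00336), and IEC_12357 of PPARG, a nuclear receptor for fatty acids (1.23 ± 0.39, edgeR adjusted p = 0.0194). Among 43 tested smORFs in sterol synthesis genes, 9 rose with differentiation (20.9%, near the 17.7% of all smORFs tested) and 0 were called with micelles, where the median log2 fold change was -0.03 for lipid micelles against the control and -0.34 against micelles without lipid. Many smORFs in these lists share a host gene, such as ACSL3 or DHCR7, so they are not independent observations. smORFs outside coding regions were counted here, so these lists do not report on the coding sequences of the same genes.

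Within the gene, the division of counts between the smORFs was compared. Over all libraries the 463 counts of IEC_08660 came to 54.4% of the 851 counts of IEC_08659 (95% Wilson interval 51.0% to 57.7%), on 25% of its length. If each of them was also counted for IEC_08659, this was, per 100 nt, 702 counts on the shared bases, 196 on the other 198 nt of IEC_08659 and 807 on IEC_08658, summed over the 8 libraries. How reads that cross the edge of a smORF were counted is not given in the sources used here, and such reads weigh more on a short smORF, so the densities are approximate.

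Among differentiated cells, that share was 50.0% and 57.7% in the control libraries, 51.8% and 54.1% in cells given micelles without lipid, and 48.0% and 63.9% in cells given lipid micelles. In undifferentiated cells it was 26.3% (5 of 19 counts) and 4 of 10 counts, below all 6 differentiated libraries, but with intervals from 11.8% to 48.8% and from 16.8% to 68.7% that reach into the range of the others. The share of IEC_08658 in the summed counts of IEC_08658 and IEC_08659 was 28.5% over all libraries and lay between 21.5% and 33.3% in the 6 differentiated libraries. In undifferentiated cells it was 29.6% (8 of 27 counts) and 9.09% (1 of 11 counts), the latter with an interval from 1.62% to 37.7%.

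**Figure D4:**
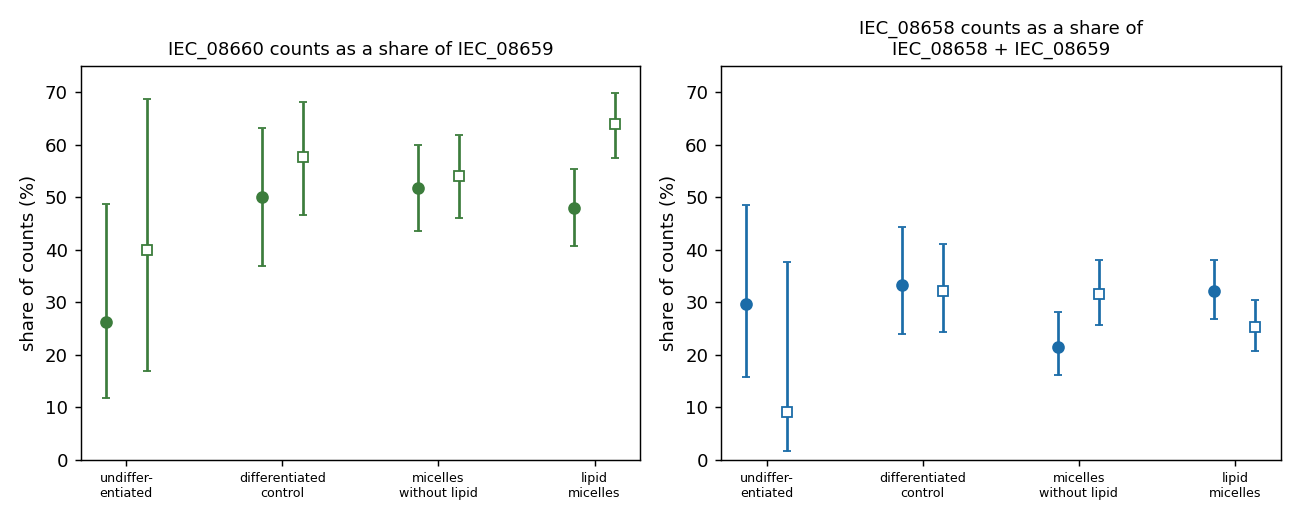
Left, IEC_08660 counts as a percentage of IEC_08659 counts, and right, IEC_08658 counts as a percentage of the IEC_08658 and IEC_08659 sum, per library (replicate 1 filled, replicate 2 open) with 95% Wilson intervals. The differentiated libraries lie between 48.0% and 63.9% on the left and between 21.5% and 33.3% on the right, and the undifferentiated libraries have the widest intervals.

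Over the 8 libraries, the log2 CPM of IEC_08659 correlated with that of IEC_08658 at Pearson's r = 0.96, and with that of IEC_08660, with which it shares bases, at r = 0.99. Both are descriptions over points that include the gap between undifferentiated and differentiated cells. Of 15179 other smORFs, the 5 most like IEC_08659 lay in 2 genes. IEC_05421, in the antisense RNA BCAR3-AS1 at chr1:93592295-93592474, had r = 0.98, with means of 6.59 ± 1.79 CPM in undifferentiated cells, 14.6 ± 1.36 in the control, 19.6 ± 0.41 without lipid and 19.0 ± 0.48 with lipid in the micelles (SD, n = 2). Its counts were low: 5 and 3, 7 and 12, 11 and 14, and 13 and 16 in the same order of groups. At such counts the SD of 2 libraries can understate the counting error. Whether the counting used the strand is not given in the sources used here, so reads of BCAR3-AS1 and of its sense partner BCAR3 may not be separated. The other 4, IEC_17639, IEC_18077, IEC_19399 and IEC_21821, are uORFs of SERPINA1, which encodes the protease inhibitor alpha-1-antitrypsin. They overlap on the - strand of chromosome 14, 2 of them have identical counts, and all 4 have r = 0.98, so they amount to a single stretch of sequence. For IEC_17639 the means were 1640 ± 279 CPM, 4068 ± 528, 5120 ± 167 and 6256 ± 239 in the same order of groups. In all, 101 smORFs had r of at least 0.95.

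The surroundings of the gene were then compared. Within 500 kb of LINC02732, 2 other smORFs were counted. IEC_23273, a uORF of RDX, which encodes the membrane and actin linker radixin, lies 68101 bp from the gene on the - strand. Undifferentiated cells gave 21 and 38 counts of it, with 10 and 11 in the control, 12 and 10 in cells given micelles without lipid, and 14 and 18 in cells given lipid micelles. It fell with differentiation, with a log2 fold change of -1.58 ± 0.45 (edgeR adjusted p = 0.0117), opposite to LINC02732. Its log2 fold change was 0.07 ± 0.52 in cells given micelles without lipid and 0.33 ± 0.49 in cells given lipid micelles, each against the control (edgeR adjusted p = 1 and 0.982). IEC_12838, 262050 bp away and without a host gene, had 0 to 9 counts in each library and did not pass the filter on low counts. FDX1, which encodes the mitochondrial electron carrier ferredoxin 1 and is the nearest coding gene at 22335 bp, held no counted smORF.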

How the data were processed

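Ribosome footprints of 8 Caco-2 libraries had been aligned by the authors to hg38 with STAR and counted per smORF with HOMER, per the labels and the study's methods. The labels give STAR 2.7.11a, and the study's methods print a different STAR version. The deposited values are raw counts, used as deposited. The strand, edge and multi-mapping options of the counting are not given in the sources used here. The authors had called smORFs of up to 150 amino acids with RibORF on transcripts assembled across the cell lines of the study. The RibORF and PhyloCSF scores deposited with the annotation are described and not tested.

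All 24199 counted smORFs joined the annotation by name. Groups came from the labels. Counts were tested in edgeR 4.0.16 (R 4.3.3) with filterByExpr, TMM and the quasi-likelihood test in 1 fit to all 8 libraries, with Benjamini-Hochberg adjustment over 15182 smORFs, and the procedure was tested on simulated data. DESeq2 1.42.0, other scalings, filters and sample sets were alternatives. SE is the absolute log2 fold change over the root of F. log2 CPM used a prior count of 2. Genomic sequence and annotation were hg38 and GENCODE 44. The named smORFs are all in LINC02732, the 5 with the highest Pearson's r to its most counted smORF, those within 500 kb, and those singled out in fixed lists by host gene, where exceptions were named after their values were seen. The members and lists were chosen with earlier results of these data known.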

Additional observations from a re-analysis of the deposited data

How the results depend on the processing

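All 45 values of the 3 smORFs for differentiated control against undifferentiated cells stayed positive under the alternatives tried, and each was called. With at least 10 counts in every library only IEC_08659 was left to test, so 1 smORF was called in place of 3. In the micelle comparisons every alternative value was also positive. For lipid micelles against the control, IEC_08659 and IEC_08660 (2 of 3) were called when low-count smORFs were not filtered out, and 0 were called under the other settings. Without that filter 4 of all 22770 smORFs tested were called, 3 of them higher. IEC_08660 lies inside IEC_08659, so the calls of these smORFs are not independent. Since the values of lipid micelles against the control chose the gene, neither those calls nor the positive sign of these values is support. The other micelle comparisons share libraries with it. The log2 fold change of IEC_08659 was 1.33 with library totals alone against 1.38.

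The labels give the replicates a number and do not say what it stands for. Same-numbered deviations correlated at 0.11 to 0.20 among the differentiated groups and at -0.07 to 0.02 with undifferentiated cells. With the replicate number as a block, IEC_08659 had log2 fold changes of 2.09, 1.15, 1.37 and 0.22 in the 4 comparisons in the order of the text, with no change of call for the 3 smORFs, while calls over all smORFs went from 0 to 15 with micelles without lipid, to 1 with lipid micelles and to 14 between the micelles. Leaving out each library in turn gave IEC_08659 values of 1.78 to 2.51, 1.00 to 1.31, 1.35 to 1.40 and 0.08 to 0.37.

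The mean summed level depends on what is summed. With all 3 smORFs, which counts shared reads more than once, it was 205.7, 430.3 and 518.9 CPM in the control and in the micelle groups without and with lipid. With IEC_08659 alone it was 101.6, 228.3 and 263.9 CPM. With library totals alone it was 292.9 CPM with micelles without lipid. Of the 5 most alike smORFs, 0 stayed among the first 5 over the 6 differentiated libraries and 0 by Spearman correlation, so that list is not stable.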
